A study of Mus musculus with 12 samples.

Results

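Suprabasin, keratinocyte differentiation associated protein, keratins 1 and 10, loricrin, involucrin, 2 small proline-rich proteins, desmoglein 3 and stratifin are products of stratified squamous epithelium, and their 10 genes were followed here in mouse mammary tumours. The genes Sbsn, Krtdap, Krt1, Krt10, Lor, Ivl, Sprr1a, Sprr1b, Dsg3 and Sfn were chosen by name, and all 10 were found among the 54658 genes counted in each RNA-seq library. The study held 9 tumour libraries, with the genotype Trp53R245W/+, a missense change in 1 allele of the p53 gene, and 3 libraries of epithelium enriched from wild-type mammary glands. Per the labels all came from females of a C57BL/6J X BALB/cJ F1 hybrid, the study's design text calls the mutation somatic, and the epithelium came from the same cohort. The labels used here name no age, treatment or promoter, and leave unsaid if any 2 tumours grew in 1 mouse, so p-values measure the spread between these samples. Genotype, tissue and the prefix of the library titles (R597 for tumours, R688 for epithelium) all follow the group and cannot be told apart. A missense allele need not change the level of its transcript, so the Trp53 count checks no label. In CPM, the counts scaled to library size that are defined below, Trp53 stood at 48.5 ± 19.7 (SD, n = 9) in tumours and 43.8 ± 2.00 (n = 3) in epithelium.

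In skin, oesophagus and other stratified epithelia, cells leave a basal layer and mature as they move outward. Basal cells are held together by desmosomes rich in desmoglein 3. In the epidermis, suprabasal cells replace their keratins with keratins 1 and 10 and secrete suprabasin and related proteins. They assemble under the membrane a shell of involucrin, small proline-rich proteins and loricrin that transglutaminases cross-link into the cornified envelope. The healthy mammary gland is a simple ductal epithelium of a luminal and a myoepithelial layer, which does not cornify, although squamous differentiation occurs in some mammary tumours. Stratifin, also called 14-3-3 sigma, is an epithelial 14-3-3 protein and a known target of p53.

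Gene counts per library ran from 19695318 to 33600076. CPM (counts per 1e6) were counts over the library total scaled by the trimmed mean of M values, so a limit of 3 counts, taken for a count of 0, was 0.0987 to 0.274 CPM. The library of tumour 4 stood apart, with 52.0% of alignments not unique, 22.6% of its gene counts from Rn7sk, a small nuclear RNA, and 11.2% from mitochondrial genes. The summed level of 8 markers of simple luminal epithelium was 1134 to 7070 CPM in tumours and 1867 to 2968 CPM in epithelium, with no marker at 0 in any library. The epithelium libraries also held 6 T and NK cell markers at a summed 279 to 323 CPM, against 2.29 to 25.7 CPM in tumours, and endothelial and adipocyte markers above every tumour. The part of these other cells in the results below was not tested.

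A short motif, which the choice of genes did not use, recurred near the starts of most of the genes. RefSeq promoter windows (build GRCm38.p6) were matched for 8 of the 10 genes, not for Krt1 or Dsg3. Motifs were searched on both strands in the 250 bases before each start, for 4 strings. The first was TGANTCA, with N any base, a loosened form of the AP-1 site TGAGTCA or TGACTCA. The others were TATAAA, the TATA box, CCACCC for KLF factors and AACCNGTT for grainyhead factors. TGANTCA was held by 6 of the 8 windows, and by 6.70% of all 32536 windows of that length. In Sbsn and Sprr1b the match was TGAATCA, which fits the loosened string only. The 120 bases before the start of those 6 genes are shown 5′ to 3′ on the gene's strand, with a match to TGANTCA in capitals, because of the searched strings it was the rarest in the background that most of the 8 windows held.
Sbsn, chr7:30751351-30751470, plus strand: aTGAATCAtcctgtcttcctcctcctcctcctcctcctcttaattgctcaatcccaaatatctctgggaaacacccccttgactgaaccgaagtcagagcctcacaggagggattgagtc
Krtdap, chr7:30787785-30787904, plus strand: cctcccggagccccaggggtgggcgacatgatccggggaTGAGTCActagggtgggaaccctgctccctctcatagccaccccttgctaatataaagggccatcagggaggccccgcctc
Lor, chr3:92083143-92083262, minus strand: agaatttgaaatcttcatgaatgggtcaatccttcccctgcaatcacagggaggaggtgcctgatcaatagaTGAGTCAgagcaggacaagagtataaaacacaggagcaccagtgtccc
Ivl, chr3:92573736-92573855, minus strand: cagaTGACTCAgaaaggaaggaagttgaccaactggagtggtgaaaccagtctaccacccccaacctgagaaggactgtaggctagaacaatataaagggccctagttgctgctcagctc
Sprr1a, chr3:92485882-92486001, minus strand: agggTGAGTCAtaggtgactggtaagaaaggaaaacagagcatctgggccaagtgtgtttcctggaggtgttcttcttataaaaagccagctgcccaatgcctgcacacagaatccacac
Sprr1b, chr3:92438780-92438899, minus strand: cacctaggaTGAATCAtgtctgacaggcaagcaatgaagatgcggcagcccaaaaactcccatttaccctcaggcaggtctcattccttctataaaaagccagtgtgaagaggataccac
The first base of the match lay 119 bases before the start in Sbsn, 81 in Krtdap, 48 in Lor, 116 in Ivl, 116 in Sprr1a and 111 in Sprr1b. Sprr1a held another match 146 bases before its start. TATAAA was also in 6 of the 8 windows, those of Krtdap, Krt10, Lor, Ivl, Sprr1a and Sprr1b, 26 to 43 bases before the start, and in 12.3% of all windows. CCACCC was in 6 of the 8 as well (Sbsn, Krtdap, Krt10, Ivl, Sprr1a and Sprr1b) and in 28.1% of all windows. AACCNGTT was in the window of Sfn alone and in 1.80% of all windows. The windows of Krt10 and Sfn held no TGANTCA. A match is a run of letters and not a measured binding site.

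Of the 10 genes, 8 passed the filter on low counts and were tested, and Krt1 and Sprr1b were not. A gene was called where edgeR's quasi-likelihood test gave an adjusted p (Benjamini-Hochberg, over the 21456 genes tested) under 0.05. Sbsn was called higher in tumours and none was called lower. That is 1 of 8, where 8.89% of all genes tested were called higher and 11.4% lower, 20.3% in either direction. At an unadjusted p under 0.05, 4 of the 8 were higher and 0 lower, beside 19.1% and 16.9% of all genes tested. DESeq2 called 4 higher and 0 lower of the 8 it gave an adjusted p, beside 13.6% and 12.8% of all such genes. Limma-voom called 4 higher and 0 lower of 8, beside 23.3% and 26.2% of all genes. The other gene lists below are to be read against the same shares. Every tumour stood above every epithelium library for Sbsn and Krt10, as for 10.2% of genes tested. The median log2 fold change of the 8 tested genes was 2.14, and that of all genes tested 0.17. Genes that passed the filter through high tumours alone had to differ. These counts, and those of the other lists below, thus describe the lists and support nothing further.

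**Figure D1:**
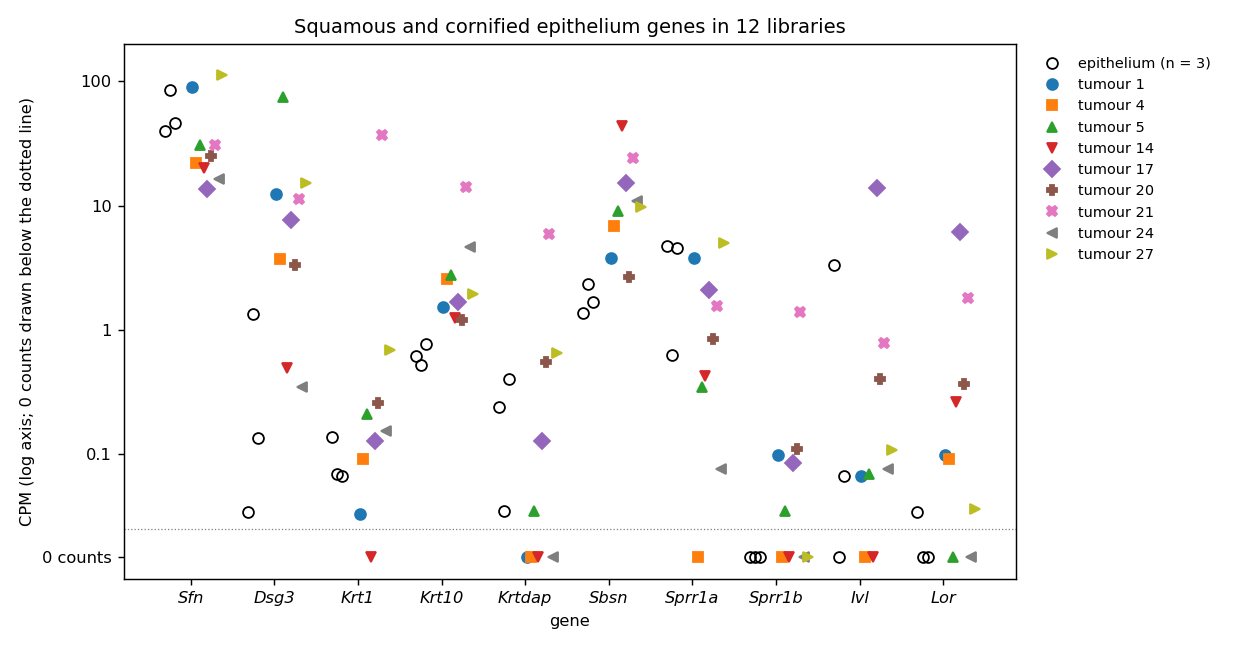
CPM of the 10 genes in each library on a log axis, with 9 tumour points and 3 epithelium points per gene and libraries at 0 counts drawn at the foot. Sbsn and Krt10 show tumours wholly above epithelium, while Krt1, Krtdap, Sprr1b, Ivl and Lor each show 1 or 2 tumours far above the rest.

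Sbsn (ENSMUSG00000046056.15, chr7:30751471-30756134, plus strand) encodes suprabasin, a secreted protein of suprabasal keratinocytes. It stood at 3.82 CPM in tumour 1, 6.84 in tumour 4, 9.04 in tumour 5, 43.7 in tumour 14, 15.2 in tumour 17, 2.65 in tumour 20, 24.1 in tumour 21, 10.9 in tumour 24 and 9.84 in tumour 27. The 3 epithelium libraries held 1.39, 2.33 and 1.69 CPM. All 9 tumours were higher than the highest epithelium library, tumour 20 only just so. The means were 14.01 ± 12.9 CPM (SD, n = 9) and 1.80 ± 0.482 CPM (n = 3), a log2 fold change of 2.96 with an SE of 0.84 (edgeR adjusted p = 0.0259). In bulk RNA, more cells of a type and more RNA per cell cannot be told apart. Without epithelium library 1, 2 or 3 the adjusted p was 0.118, 0.0841 or 0.11. An RNA gene on the same strand, Tmem147os, shares 279 exonic bases with Sbsn, and 6.96% of its 50-base stretches. Tmem147os itself was not called (5.85 ± 2.04 CPM in tumours, 4.68 ± 0.790 CPM in epithelium).

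Krtdap (ENSMUSG00000074199.7, chr7:30787896-30791097, plus strand), a small secreted protein of differentiating keratinocytes, lies in the same cluster as Sbsn with Dmkn between them. It was seen at 5.97 CPM in tumour 21, 0.653 in tumour 27, 0.553 in tumour 20, 0.127 in tumour 17 and 0.0350 in tumour 5, and had 0 counts in tumours 1, 4, 14 and 24. Epithelium libraries 1, 2 and 3 held 0.242, 0.0348 and 0.406 CPM. Tumour 21 carried 81.4% of the summed tumour CPM, and the groups otherwise overlapped. The log2 fold change was 1.82 (SE 1.88, adjusted p = 0.511). It was -0.36 without tumour 21, with an adjusted p of 0.861. Tumour 14, with the most Sbsn, thus had no Krtdap read, and the neighbours differed tumour by tumour.

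Krt10 (ENSMUSG00000019761.10, chr11:99385254-99389364, minus strand) encodes the acidic keratin that pairs with keratin 1. Its level was 14.1 CPM in tumour 21, 4.69 in tumour 24, 2.77 in tumour 5, 2.55 in tumour 4, 1.96 in tumour 27, 1.70 in tumour 17, 1.53 in tumour 1, 1.25 in tumour 14 and 1.22 in tumour 20. Epithelium held 0.623, 0.521 and 0.778 CPM. No tumour reached down to the epithelium, and tumour 21 lay furthest above it. The means were 3.53 ± 4.11 CPM in tumours and 0.641 ± 0.129 CPM in epithelium, and the log2 fold change was 2.45 (SE 0.85, unadjusted p = 0.0126, adjusted p = 0.0578), which missed the threshold. It passed without tumour 21, at a log2 fold change of 1.78 and an adjusted p of 0.0260. It also passed without tumour 1 (0.0482) and without tumour 20 (0.0494). DESeq2 gave an adjusted p of 0.00571 and limma-voom 0.00172. The antisense gene Gm11940 overlaps 146 exonic bases of Krt10, and the strand setting of the counting is not given in the sources used here. Gm11940 lay at 0.418 ± 0.191 CPM in tumours.

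Krt1 (ENSMUSG00000046834.7, chr15:101845426-101850794, minus strand), the basic partner of keratin 10, was almost wholly a transcript of tumour 21. Tumour 21 held 36.9 CPM (890 counts, exact 95% binomial interval 34.5 to 39.4, counting error only). The other tumours held 0.690 CPM (27), 0.258 (20), 0.210 (5), 0.154 (24), 0.127 (17), 0.0912 (4) and 0.0332 (1), and tumour 14 had 0 counts. Epithelium libraries held 0.139, 0.0695 and 0.0676 CPM. Tumour 21 carried 95.9% of the tumour sum, 53.5 times the next tumour, and the remaining 8 tumours overlapped the epithelium. Krt1 failed the filter and was not tested with it. With no filter its log2 fold change was 5.44 (adjusted p = 0.231), and by DESeq2 1.04 (adjusted p = 0.483). DESeq2 was run with its default replacement of outlier counts, whose part in that value was not tested.

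Across the 9 tumours log2 CPM of Krt1 and Krt10 gave Pearson's r = 0.829 (exact permutation p = 0.0321, two-sided, adjusted over 3 relations 0.0482) and Spearman's rho = 0.450 (permutation p = 0.230, adjusted 0.345). Without tumours 21 and 27, the farthest from the Krt1 median, r was 0.354 (exact permutation p = 0.433). Without tumour 21 alone it was 0.229, so the relation rests on that tumour. In 3 tumours Krt1 had under 3 counts. Sprr1a with Sprr1b and Sbsn with Krtdap gave no relation, since Sprr1b was under 3 counts in 6 tumours and Krtdap in 5.

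**Figure D2:**
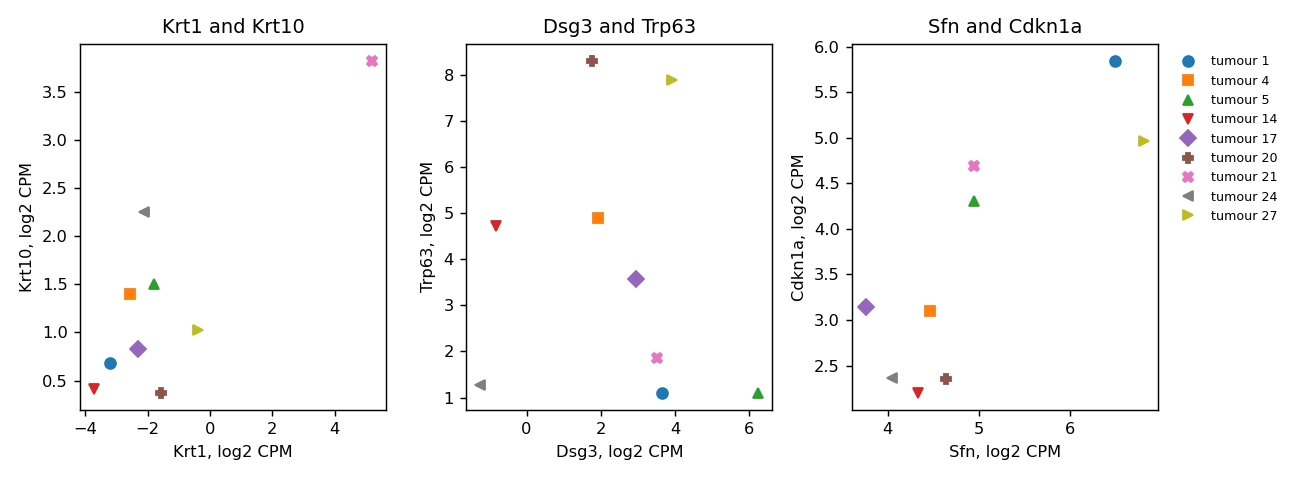
Log2 CPM (prior count 2) of Krt1 against Krt10, Dsg3 against Trp63 and Sfn against Cdkn1a, with 1 numbered point for each of the 9 tumours. Tumour 21 stands alone in the first panel, no line of points is seen in the second, and tumours 1 and 27 sit at the upper right of the third.

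Among the envelope proteins, Ivl and Lor were highest in tumour 17. Ivl (ENSMUSG00000049128.7, chr3:92570902-92573735, minus strand) encodes involucrin, an early scaffold of the envelope. Tumour 17 held 13.98 CPM, followed by 0.788 in tumour 21, 0.405 in tumour 20, 0.109 in tumour 27, 0.0769 in tumour 24, 0.0700 in tumour 5 and 0.0665 in tumour 1, with 0 counts in tumours 4 and 14. Epithelium library 1 held 3.32 CPM, library 2 had 0 counts and library 3 held 0.0676 CPM. Epithelium library 1 was therefore above every tumour but 17, and the groups overlapped. The log2 fold change of 0.61 (SE 1.98, adjusted p = 0.849) was -2.52 without tumour 17 and 5.47 without epithelium library 1.

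Lor (ENSMUSG00000043165.7, chr3:92080271-92083142, minus strand) encodes loricrin, the main late envelope protein. It was at 6.19 CPM in tumour 17, 1.82 in tumour 21, 0.368 in tumour 20, 0.263 in tumour 14, 0.0997 in tumour 1, 0.0912 in tumour 4 and 0.0363 in tumour 27, and had 0 counts in tumours 5 and 24. Epithelium had 1 count in all, at 0.0346 CPM in library 1, against 213 counts in tumours. Tumours 17 and 21 carried 69.8% and 20.6% of the tumour sum, and the other 7 lay at 0.368 CPM or less. The pooled ratio was 81.3 (exact 95% interval 14.4 to 3230, counting error only), and the fitted log2 fold change 5.93 (SE 2.48, adjusted p = 0.105). DESeq2 gave an adjusted p of 0.0487 and limma-voom 0.0288. Without tumour 17, 20 or 21 Lor failed the filter.

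Sprr1a and Sprr1b encode small proline-rich proteins that bridge other envelope proteins, and lie near each other beside Sprr3. Their coding sequences in GENCODE M21, 432 and 459 bases without the stop codon, are identical at 360 of 432 aligned bases (83.3%). The starts of both are shown because reads of such paralogs can be confused, with bases that differ or are unpaired in capitals.
Sprr1a: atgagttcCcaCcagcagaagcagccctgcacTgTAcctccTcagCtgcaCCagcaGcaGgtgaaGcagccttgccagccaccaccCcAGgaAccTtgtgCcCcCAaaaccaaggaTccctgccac
Sprr1b: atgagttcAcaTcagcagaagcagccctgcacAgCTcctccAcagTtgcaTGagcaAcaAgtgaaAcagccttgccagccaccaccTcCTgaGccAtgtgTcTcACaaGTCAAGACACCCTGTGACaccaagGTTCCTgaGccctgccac
The longest identical run between them was 20 bases, and no 50-base stretch of either transcript occurred in another gene.

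Sprr1a (ENSMUSG00000050359.7, chr3:92483952-92485895, minus strand) stood at 4.97 CPM in tumour 27, 3.82 in tumour 1, 2.12 in tumour 17, 1.58 in tumour 21, 0.847 in tumour 20, 0.428 in tumour 14, 0.350 in tumour 5 and 0.0769 in tumour 24, with 0 counts in tumour 4. Epithelium held 4.78, 0.626 and 4.56 CPM. Only tumour 27 passed the highest epithelium library, and the groups overlapped. Means were 1.58 ± 1.77 and 3.32 ± 2.34 CPM, and the log2 fold change -1.06 (SE 1.05, adjusted p = 0.491). Sprr1b (ENSMUSG00000048455.9, chr3:92436809-92438789, minus strand) had 0 counts in all 3 epithelium libraries and 43 counts in tumours. Tumour 21 gave 34 of them, 1.41 CPM, and the other 8 tumours 9 together, none above 3 counts. The pooled tumour level was 5.47 times the limit of 3 counts over the epithelium group, and 1.28 times without tumour 21. These ratios leave out the counting error of the tumour counts, only 9 without tumour 21, so they are not lower bounds. Sprr1b failed the filter, and with none its edgeR adjusted p was 0.183.

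**Figure D3:**
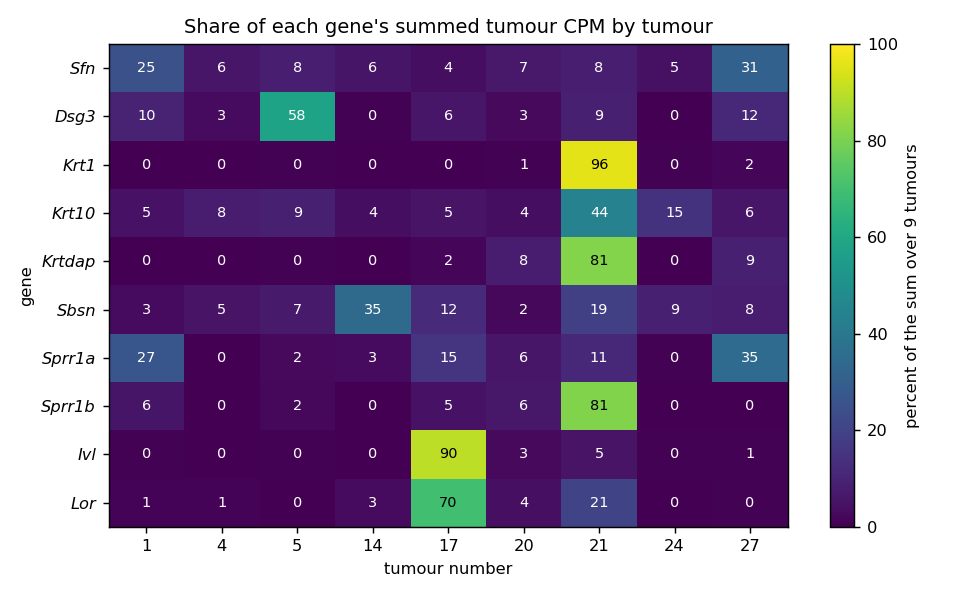
Percent of each gene's summed tumour CPM that came from each of the 9 tumours, with genes in rows and tumours in columns. Krt1, Krtdap and Sprr1b concentrate in tumour 21, Ivl and Lor in tumour 17 and Dsg3 in tumour 5, while Sbsn, Sprr1a and Sfn spread more widely.

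Dsg3 (ENSMUSG00000056632.8, chr18:20510274-20547459, plus strand) encodes desmoglein 3, a cadherin of basal desmosomes. It stood at 75.5 CPM in tumour 5, 15.1 in tumour 27, 12.4 in tumour 1, 11.4 in tumour 21, 7.67 in tumour 17, 3.74 in tumour 4, 3.32 in tumour 20, 0.494 in tumour 14 and 0.346 in tumour 24. Epithelium held 0.0346, 1.36 and 0.135 CPM. Tumours 14 and 24 lay within the epithelium range and the other 7 lay above it. Means were 14.4 ± 23.5 and 0.509 ± 0.736 CPM, and the log2 fold change was 4.82 (SE 1.78, unadjusted p = 0.0176, adjusted p = 0.0713), which missed the threshold. DESeq2 gave an adjusted p of 0.000846 and limma-voom 0.00601. Leaving out single libraries moved the fold change from 3.74 to 7.33, the last without epithelium library 2.

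Trp63 encodes p63, the regulator of stratified epithelium. It was highest in tumours 20 (316 CPM) and 27 (238 CPM) and 2.07 CPM in tumour 5, where Dsg3 was highest. The relation of Dsg3 with Trp63 gave r = -0.130 (exact permutation p = 0.737, adjusted 0.737) and rho = -0.283 (permutation p = 0.463, adjusted 0.463). Without tumours 14 and 24, r was -0.559 (exact permutation p = 0.190). Without tumour 5 it was 0.123.

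Sfn (ENSMUSG00000047281.3, chr4:133600556-133602168, minus strand) was the most abundant of the 10 per length in both groups. It stood at 112 CPM in tumour 27, 89.5 in tumour 1, 30.8 in tumour 21, 30.7 in tumour 5, 24.9 in tumour 20, 22.0 in tumour 4, 20.01 in tumour 14, 16.4 in tumour 24 and 13.5 in tumour 17. Epithelium held 40.2, 85.0 and 45.9 CPM. Tumours 1 and 27 were above every epithelium library and the other 7 below every one, so the tumours lay on both sides. Means were 40.0 ± 35.4 and 57.0 ± 24.4 CPM, and the log2 fold change was -0.51 (SE 0.61, edgeR adjusted p = 0.575). Of its 50-base stretches 15.0% occur in the pseudogenes Gm7850 and Gm5279 or in Ywhaq-ps1. The first and second of these held 0.0341 and 0.0837 CPM in tumours.

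Cdkn1a, another known p53 target that encodes the cell cycle inhibitor p21, was also highest in tumours 1 (57.5 CPM) and 27 (31.1 CPM). Over the 9 tumours Sfn and Cdkn1a gave r = 0.824 (exact permutation p = 0.00345, adjusted over 3 relations 0.0103) and rho = 0.733 (permutation p = 0.0311, adjusted 0.0934). Without tumours 1 and 27, r was 0.619 (exact permutation p = 0.138), so the relation no longer passed without those tumours. Leaving out any single tumour gave r from 0.736 to 0.861.

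Per kilobase of exon, mean levels in tumours ranked in the order Sfn (24.8 CPM per kb), Sbsn (3.86), Dsg3 (2.07), Sprr1a (1.96), Krt10 (1.67), Krtdap (1.20), Krt1 (0.968), Ivl (0.896), Lor (0.554) and Sprr1b (0.233). In epithelium the order was Sfn (35.4), Sprr1a (4.12), Ivl (0.588), Sbsn (0.497), Krtdap (0.335), Krt10 (0.303), Dsg3 (0.0729), Krt1 (0.0208), Lor (0.00649) and Sprr1b, at 0 counts. The SD of each tumour mean other than that of Sfn and Sbsn was as large as the mean or larger, so the ranks from Dsg3 to Sprr1b do not separate neighbours. In epithelium Sfn (SD 15.1) stood clear of Sprr1a (SD 2.90).

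**Figure D4:**
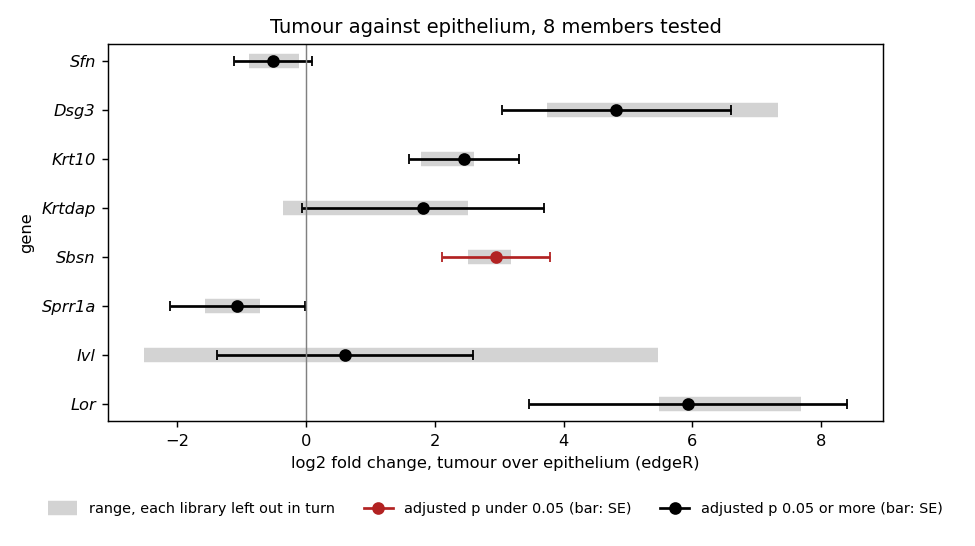
Log2 fold change of tumours over epithelium for the 8 tested genes, with the SE as a bar and, in grey, the range when each library in turn was left out. Sbsn at 2.96 is the only one of the 8 called, and the widest SE bars belong to Lor, Ivl and Krtdap.

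Read tumour by tumour, the genes were not all high in the same tumours. Tumour 21 was the highest tumour for Krtdap, Krt1, Krt10 and Sprr1b, 4 of the 10 genes. Of all genes tested, 13.6% were highest in that tumour. Krtdap and Krt10 were tested, but Krt1 and Sprr1b failed the filter, so that share does not cover genes like them. Tumour 21 held 9 of the 10 genes at 1 CPM or more, all but Ivl. Tumour 17 was highest for Lor and Ivl (8.03% of all genes tested were highest there) and held 7 genes at 1 CPM or more. Tumour 27 led for Sprr1a and Sfn, tumour 5 for Dsg3 and tumour 14 for Sbsn. Tumours 1, 4, 20 and 24 led for none. Tumours 14 and 24 held 3 genes at 1 CPM or more, the same number as epithelium libraries 2 and 3.

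Without Sfn, which made up 22.3% to 80.3% of the sum in tumours, the other 9 genes summed to 98.1 CPM in tumour 21 and 88.0 in tumour 5. They summed to 47.2 CPM in tumour 17, 46.1 in tumour 14, 33.4 in tumour 27, 21.9 in tumour 1, 16.2 in tumour 24, 13.3 in tumour 4 and 9.73 in tumour 20. In epithelium they summed to 10.6, 4.94 and 7.71 CPM. The sum of tumour 5 was mostly Dsg3 and that of tumour 14 mostly Sbsn, while tumour 21 combined Krt1, Sbsn, Krt10 and Dsg3. Tumour 20 alone lay within the epithelium range.

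Other markers moved with tumour 21. The 6 fibroblast markers summed to 31650 CPM there, against 1273 to 5592 CPM in the other tumours and 3700 to 5643 CPM in epithelium. The 5 macrophage markers summed to 1396 CPM, with 305 to 1254 CPM in the other tumours, tumour 4 being next, and 389 to 434 CPM in epithelium. The part of these cells in the tumour 21 values was not tested. Hair follicle markers, a possible sign of skin in the sample, summed over the 11 genes found to 2.32 CPM in tumour 21, 0.0658 to 21.4 CPM in the other tumours and 8.42 to 10.7 CPM in epithelium, where most of it was Msx2. Without Msx2 the sum was 2.24 CPM in tumour 21, 0.0658 to 14.7 CPM in the other tumours and 0.208 to 1.39 CPM in epithelium. Tumour 21 had counts for 8 of the 11 genes, more than any other library (2 to 7). Krt27 was the highest there, at 1.37 CPM, and Krt72, Krt33a and Hoxc13 had 0 counts. Of those 8, Krt28, Krt31 and Krt35 had 1 count and Krt71 and Msx2 had 2, under the limit of 3 counts. Tumour 20 held 19 counts of Krt27, 39 of Krt28, 140 of Krt71, 11 of Krt73, 26 of Msx2 and 10 of Hoxc13. The number of genes with a count therefore does not set tumour 21 apart. The melanocyte markers summed to 3.44 CPM in tumour 21 and to 2.42 to 4.24 CPM in the other tumours, all below epithelium (4.53 to 5.64 CPM). Tyr, the most abundant of them, was higher in tumour 21 (2.74 CPM) than in any other tumour. The part of skin, follicular or interfollicular, was not tested.

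Other precursors of the cornified envelope, a list of 42 genes, were mostly under 1 CPM. No count was seen for 6 of them, and 31 stayed under 1 CPM in every library. Of the 11 that reached 1 CPM in some library, 6 (Flg, Flg2, Hrnr, Lce1b, Crct1 and Csta1) reached it in tumour 21 alone, so that choice fixed their highest tumour. Of the other 5, Rptn and Dmkn were highest among tumours in tumour 21. The names, apart from Dmkn, were picked here after their values were seen. Flg, the filaggrin that bundles keratin, was 10.2 CPM in tumour 21 and at most 0.109 CPM in any other library. The related proteins Rptn, Hrnr and Flg2 stood at 20.6, 5.56 and 3.40 CPM in tumour 21. Rptn was next highest in tumour 27, at 1.05 CPM. Lce1b, a late envelope gene, was 1.04 CPM in tumour 21. In tumour 17, where Lor and Ivl were highest, Flg had 0 counts and Rptn 0.127 CPM, and Tchh reached its highest level, 10.5 CPM.

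**Figure D5:**
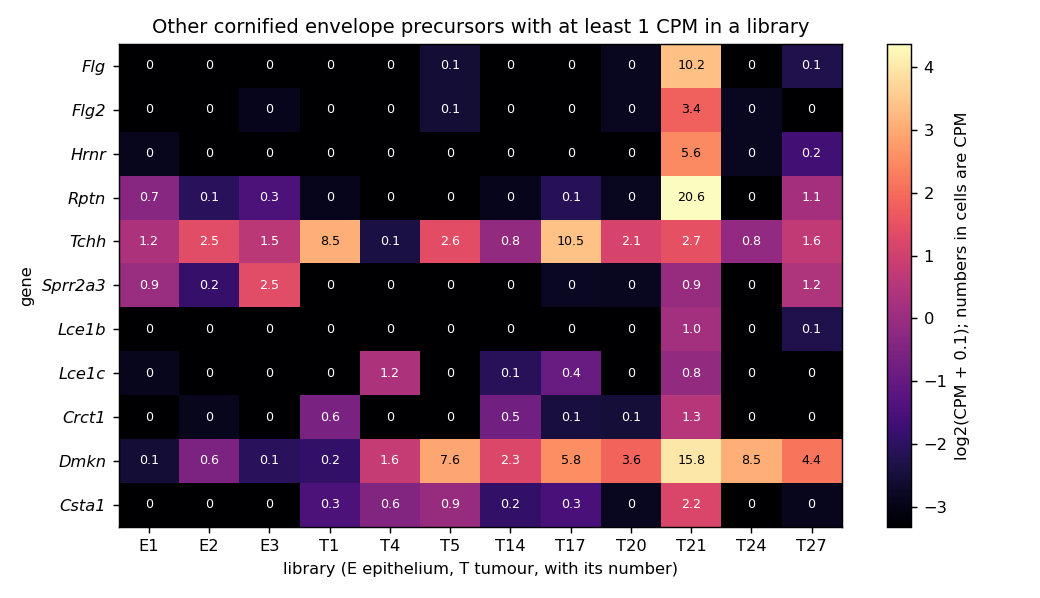
CPM by library of the envelope precursor genes that reached 1 CPM in at least 1 library, with epithelium and tumour libraries in columns and colour for log2(CPM + 0.1). The 6 genes that reach 1 CPM in tumour 21 alone are shown because of that tumour, and Rptn reads 20.6 and Dmkn 15.8 there.

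Only 6 of the 42 precursors were tested, with 1 called higher (Dmkn), 0 lower, 1 at an unadjusted p under 0.05 and a median log2 fold change of 3.37. Passing the filter through high tumours alone fixes the direction of a gene, so these values describe the list only. Dmkn, the dermokine gene between Sbsn and Krtdap, was 5.53 ± 4.72 CPM in tumours and 0.265 ± 0.284 CPM in epithelium, and its log2 fold change 4.36 (SE 1.21, edgeR adjusted p = 0.0234). Its lowest tumour was 1, at 0.166 CPM, and its highest 21, at 15.8 CPM, and 8 tumours lay above every epithelium library. Without epithelium library 1 or 3 the call was lost (adjusted p up to 0.113).

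Of 25 genes that cross-link or process the envelope, 18 were tested, with 4 called higher, 0 lower and a median log2 fold change of 2.47. At an unadjusted p under 0.05, 10 were higher and 0 lower. DESeq2 called 10 higher and 0 lower of 22 given an adjusted p, and limma-voom 9 and 1 of 18. Tgm5, a transglutaminase, was 0.817 ± 0.475 CPM in tumours and 0.0460 ± 0.0204 CPM in epithelium (log2 fold change 4.04, SE 0.94, adjusted p = 0.00976). Cers3, a ceramide synthase of the skin barrier, was 4.95 ± 4.66 and 0.230 ± 0.102 CPM (log2 fold change 4.41, SE 1.11, adjusted p = 0.0148). Also called were St14 and Prss8, membrane serine proteases. Leaving out 1 library gave 0 to 6 calls. Tgm5 lost its call without epithelium library 1 or 3, and Cers3 without any 1 of the 3. Of the 19 genes of this list that reached 1 CPM, 10 were highest in tumour 1 and 2 in tumour 21, and the summed list was 868 CPM in tumour 1 and 277 CPM in tumour 21. Casp14, a caspase of cornifying cells named after its values were seen, was 1.62 CPM in tumour 21 and at most 0.0726 CPM elsewhere.

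Of 16 other desmosome genes tested, 0 were called in either direction by edgeR, with a median log2 fold change of 1.31. At an unadjusted p under 0.05, 3 were higher and 0 lower, while DESeq2 called 3 higher and 1 lower and limma-voom 4 and 2. Dsp, the linker desmoplakin, had a log2 fold change of 1.11 (adjusted p = 0.434), and was lowest in tumour 14, at 8.29 CPM, and highest in tumour 1, at 768 CPM. Jup, plakoglobin, had 1.29 (adjusted p = 0.0851). The suprabasal cadherins differed by tumour, with Dsg1a at 9.04 CPM in tumour 21 and 7.91 in tumour 27, Dsc1 at 6.51 CPM in tumour 21 and Dsg1c at 13.7 CPM in tumour 17. These 3 were named after their values were seen.

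Of 17 other squamous keratins, 13 were tested, with 2 called higher, 0 lower and a median log2 fold change of 3.34, or 3.03 with a gene at 0 counts in epithelium set to its bound. At an unadjusted p under 0.05, 5 were higher and 0 lower, DESeq2 called 6 higher and 2 lower of 15 and limma-voom 5 and 2 of 13. Krt79 was 23.99 ± 17.3 CPM in tumours and 0.344 ± 0.118 CPM in epithelium (log2 fold change 6.10, SE 1.26, edgeR adjusted p = 0.00469). It was highest in tumour 4, at 46.0 CPM, and lowest in tumour 1, at 1.43 CPM. Krt79 is also 1 of 6 sebocyte markers, of which Mgst1 was the most abundant. These summed to 3006 CPM in tumour 4, 11.3 CPM in tumour 1, a tumour median of 172.5 CPM and 66.2 to 82.2 CPM in epithelium. The part of sebocytes in the Krt79 values was not tested. Krt23 was 63.5 ± 49.6 and 4.69 ± 3.59 CPM (log2 fold change 3.76, SE 1.14, adjusted p = 0.0345), a call lost without any 1 epithelium library. Krt6b and Krt16, keratins of wounded epidermis named after their values were seen, were highest in tumour 21, at 35.1 and 31.5 CPM. Of the 13 keratins of this list that reached 1 CPM, those were the only 2 highest in tumour 21, with 5 highest in tumour 27 and 3 in tumour 4.

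Of 17 regulators of squamous differentiation, 16 were tested, with 3 called higher (Grhl2, Grhl3 and Tfap2a), 1 lower (Klf4) and a median log2 fold change of 0.96. DESeq2 called 5 higher and 1 lower of 17, and limma-voom 6 and 1 of 16. Without any 1 epithelium library only Grhl2 was called higher, and without tumour 1 the number was 5. Klf4, a barrier factor of epidermis, was 14.8 ± 12.6 CPM in tumours and 156 ± 22.1 CPM in epithelium and fell by 3.39 on the log2 scale (SE 0.59, adjusted p = 0.00154). Grhl2, an epithelial grainyhead factor, rose by 1.39 on the log2 scale (SE 0.28, adjusted p = 0.00420). Grhl3, its relative in the epidermal barrier, rose by 3.22 (SE 0.89, adjusted p = 0.0232). Of the 6 other 14-3-3 genes, all tested, 1 was called higher and 0 lower, with a median of 0.67 and 5 higher at an unadjusted p under 0.05. DESeq2 called 4 higher and 0 lower of 6, beside 13.6% and 12.8% of all genes, and limma-voom 5 and 0 of 6, beside 23.3% and 26.2%. That gene, Ywhah, was 181 ± 86.7 CPM in tumours and 60.8 ± 3.96 CPM in epithelium (log2 fold change 1.57, SE 0.40, adjusted p = 0.0153), a call lost without any 1 epithelium library, where Sfn had a log2 fold change of -0.51.

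For the 4 genes at 1 CPM or more in at least 5 tumours, the genes of most similar pattern were sought among 13984 others by Pearson's r of log2 CPM over the 9 tumours, as a description. For Sbsn they were Tulp1 (0.932), Fam3a (0.908) and Ccdc117 (0.899), all highest in tumour 14 and lowest in tumour 20, as Sbsn was. For Krt10 they were Wnt16 (0.899), which encodes a Wnt ligand, Pde8a (0.886), a cyclic AMP phosphodiesterase, and Mustn1 (0.885), all highest in tumour 21. For Dsg3 they were Abcc4 (0.941), Aldh1a3 (0.924), an enzyme of retinoic acid synthesis, and Irs1 (0.918), an adaptor of insulin signalling, all highest in tumour 5. For Sfn they were Fam69a (0.965), Cdkl3 (0.940) and Lman1l (0.934), the last highest in tumour 1 and the others in tumour 27. None of these 12 is another of the 10 genes, but not all of the 10 were candidates. Only tested genes that averaged 1 CPM or more over the tumours were searched. Krt1 and Sprr1b were not tested, and Krtdap (0.815 CPM) and Lor (0.986 CPM) averaged less. The absence of Krt1, Sprr1b, Krtdap and Lor from the 12 was thus fixed in advance.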

How the data were processed

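Per the labels' protocols, RNA from the RNeasy kit went into TruSeq stranded library preparation. The deposited values are raw counts of reads per gene, with 5 summary counts per library that were left out of library sizes. The build was GRCm38 and the tools HTSeq 0.11.0, TopHat2 2.1.1 and FastQC 0.11.8, per the submitters' processing notes. The annotation release, and whether counting used strand, were not given in the sources used here. Alignments that the counting matched to no feature were 8.08% to 32.3% of the total in tumours and 39.9% to 41.5% in epithelium. Groups and replicate numbers were read from the titles.

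Counts were fitted in R 4.3.3 with edgeR 4.0.16 (filterByExpr, trimmed mean of M values, robust quasi-likelihood F test, group only) over 21456 genes, called at an adjusted p under 0.05. Alternatives were limma 3.58.1 (voom with a quality weight per group), DESeq2 1.42.0 (no adjusted p for 10586 of 38829 genes), relative log expression or upper quartile scaling, no filter, at least 10 counts in 9 libraries, and leaving out each library. DESeq2 kept its default setting, under which outlier counts among the tumours can be replaced. The test was tried on simulated data, but the outcome is not reported here and no result rests on it. Positions and lengths came from GENCODE M21, which matched 54106 of 54658 symbols. Relations used log2 CPM with a prior count of 2 (0.5 as an alternative) and exact permutation over 362880 pairings. Other steps used Python 3.11.15, pandas 2.3.3, numpy 2.4.6, scipy 1.17.1 and matplotlib 3.10.9. No library was a copy of another: counts within a group differed with a chi-square of at least 24.1 per degree of freedom. Reads carry no molecular identifiers, so intervals and limits cover counting error only.

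Named were the 10 genes, Trp53, Trp63 and Cdkn1a. From each pathway list came the 2 called genes of smallest adjusted p in each direction, or else the 2 most abundant. The 3 genes most like each member at 1 CPM or more in 5 tumours were added, and the top marker of each cell list whose groups did not overlap, 40 in all. The genes and lists were chosen with earlier results of these data known.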

Additional observations from a re-analysis of the deposited data

Results flagged for a closer look

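In 9 tumours, the gap between the highest or the lowest sample and the next can be a large share of the whole range. The larger share of the high and low ends was taken for each gene. That share passes Dixon's 95% critical value by chance in about 1 in 20 groups of normally distributed values. CPM need not be so distributed, so a gene that passes is not a 1 in 20 event here. The critical value was passed by 28.6% of all genes tested, by 14 of the 40 named genes and by 7 of the 10 squamous genes. Krt1 and Sprr1b are among those 7 but failed the filter, so the 28.6% does not cover genes like them. The 7 of 10 is thus not a like comparison with that share.

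Tumour 21 was the sample apart for Krt1 (ratio 0.981, 36.9 CPM against 0.690 in the next tumour), Sprr1b (0.922, 1.41 against 0.111), Krtdap (0.891, 5.97 against 0.653) and Krt10 (0.730, 14.1 against 4.69). Tumour 17 was apart for Ivl (0.944, 13.98 against 0.788) and Lor (0.705, 6.19 against 1.82). Tumour 5 was apart for Dsg3 (0.803, 75.5 against 15.1).

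Of the other named genes, tumour 21 was apart for Wnt16 (0.919), Mustn1 (0.730) and Tyr (0.522), tumour 14 for Ccdc117 (0.720), tumour 1 for Cdkn1a (0.497) and Ywhah (0.497), and tumour 27 for Cd4 (0.613). Wnt16 and Mustn1 were named for being like Krt10, and Ccdc117 for being like Sbsn, so they share its tumour by choice.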

How the results depend on the processing

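Genes called higher numbered 1908 by edgeR, 3830 by DESeq2 and 4994 by limma-voom, and 506 to 2486 when 1 library was left out, the lowest without epithelium library 1. Genes called lower numbered 2438, 5622 by limma-voom, and 1496 to 2753 when 1 library was left out. The share of calls that were higher was 43.9%, and 25.2% to 26.8% without an epithelium library. Of the 10 squamous genes, 1 was called higher, 4 by DESeq2, 4 by limma-voom and 0 to 2 when 1 library was left out (0 without any 1 epithelium library, 2 without tumour 1, 20 or 21), and the number called lower stayed at 0 in each of these. Krtdap reversed to -0.41 by DESeq2, -0.62 by limma-voom and -0.36 without tumour 21 (2.52 without epithelium library 3), and Ivl to -2.60 by DESeq2 and -2.52 without tumour 17 (5.47 without epithelium library 1); where a tool gave the change, the cause was not tested. The relation of Krt1 with Krt10 was 0.817 under relative log expression scaling (adjusted p = 0.0506, exact permutation) and 0.229 to 0.907 with 1 tumour left out. That of Dsg3 with Trp63 was -0.434 to 0.123, and that of Sfn with Cdkn1a 0.736 to 0.861. Sbsn was called under 15 of 18 alternatives. With 3 epithelium libraries, and with Krt1, Lor, Krtdap, Ivl and Sprr1b near 0 counts in most libraries, depth limits what their comparison can show. No paired analysis was possible because the labels pair no tumour with an epithelium library.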
